A study of Mus musculus with 2 samples.

Results

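The junctions described here are 255 splice junctions of moderate depth from mouse stomach whose reads were split unevenly between the fields R2 and R1 of the deposited junction table. A splice junction is the link between 2 exons that a read shows when it crosses an excised intron. The table listed 340787 junctions on mm9, each with R2 and R1 read counts in its name that add up to its total. A junction was called moderate with 200 to 4999 reads in all and an intron length above 100 and below 50000 bases, which 16764 junctions met. It was a member when R2 and R1, each with 1 read added and divided by its sum over all junctions, differed at least 4-fold, a log2 ratio (R2 over R1) of at least 2 in size. The members were therefore chosen on R2 and R1 themselves. Their ratios are given as descriptions with no test.

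The RNA came from whole stomach of C57BL/6J mice, an inbred laboratory strain, at 8 weeks of age; it was polyadenylated, over 200 nucleotides long and freed of ribosomal RNA, and was read in strand-specific pairs of 76 nucleotides. The study held 1 group of 2 libraries, biological replicates 2 and 1, each labelled as a pool of males and females and both tied to the same donor record, so how independent the animals were is not known. No genotype, treatment or control group was part of the design. R2 summed to 29660944 reads and R1 to 21172894. The sources used here do not tie R2 or R1 to a library. Replicate 2 held 61635982 and replicate 1 held 51633637 expected read pairs in mouse genes. The label stomach matched the gastric markers in both libraries: pepsinogen C (Pgc) stood at 148481 TPM in replicate 2 and 101314 TPM in replicate 1, and the acid pump subunit Atp4a at 1389 and 2697 TPM in the same order. The forestomach of the mouse is lined by a keratinised squamous epithelium, and 58 of 62 squamous marker genes had a TPM above 0 in at least 1 library.

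Introns are removed from the transcript by the spliceosome, which joins a donor site at the start of the intron to an acceptor site at its end. A gene can use other donors or acceptors, and the first intron of a transcript changes when another promoter or first exon is used. Reads across the first junction come from the 5′ end of the mRNA and reads across the last one from near its 3′ end. A junction count therefore reflects both how much of an mRNA is present and which part or form of it was sequenced.

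The exon ends that some of the junctions join are printed to show which sequence a read had to hold in order to be counted. Each line has 15 bases of the upstream exon in lower case and 15 bases of the downstream exon in capitals, 5′ to 3′ on the strand of the gene, taken from GENCODE M21 transcripts on GRCm38, with the GRCm38 position of the intron between them. The first 3 have 0 reads in R2 or R1. The Chchd7 lines share a donor, and the others are of first, inner and last introns described further on.
Lypd8 intron 2, chr11:58379710-58382284, plus strand: tctctgggtctggagGTTTGAGGCTCTGTG
Ssbp4 intron 5, chr8:70599758-70600395, minus strand: ccaggcttcttccagCCTCCTGTGGGCCTC
Hcfc1r1 intron 2, chr17:23674069-23674546, plus strand: cggcctaaacgccagGGAACCTTTGCACAA
Chchd7 intron 1, chr4:3939132-3939378, plus strand: ggtgaccccatgcagGTTTATGGTGTGCTG
Chchd7 intron 1, chr4:3939132-3939423, plus strand: ggtgaccccatgcagACCAGACTCTGAGAA
Adam9 intron 21, chr8:24956000-24962859, minus strand: gtctccagaccgccaCCTGGGCATGGAAAC
Syt8 intron 1, chr7:142435093-142438069, plus strand: agcagtaggtatcagGGTGGACTCAGTACT
Hnrnpk intron 1, chr13:58400418-58402392, minus strand: actcgattgcggcctATTGGTGGATCCATT
Rab35 intron 1, chr5:115632199-115637715, plus strand: tcatcggcgacagcgGTGTGGGCAAGAGCA
Rab14 intron 1, chr2:35192680-35200759, minus strand: ccagcaaccccccagTGCCACCATGGCAAC
Mrps15 intron 1, chr4:126047200-126047433, plus strand: gcctgcagcctccgaGTCTACTGCGCGCCG
Itln1 intron 1, chr1:171534818-171535220, minus strand: tggtgcagagggaagACCACCATGACCCAA
Lyg1 intron 3, chr1:37949990-37950656, minus strand: gcctgacctattgcgGAGTCCGTGCCTCTG
Lce1m intron 1, chr3:93018640-93019016, minus strand: cagtgcctgaggcagTTCCTTTGGAGATGT
Tm6sf2 intron 9, chr8:70078925-70079615, plus strand: ggagccattggccagGCGCAGTTCTCACAC

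Most members were higher in R1. Of the 255, which are 1.52% of the moderate junctions, 26 were higher in R2 (0.155% of the moderate junctions) and 229 were higher in R1 (1.37%). All moderate junctions together were shifted the same way, with a median log2 ratio of -0.29 and an SD of 0.69. After centring on that median, 154 junctions passed the limit, 50 of them higher in R2 and 104 higher in R1. Most members lay close to the limit: 185 had a log2 ratio under 2.5 in size, 33 reached 8-fold and 10 reached 16-fold. The exact binomial interval at 95%, which covers counting error only, lay past the limit in 119 members.

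**Figure D1:**
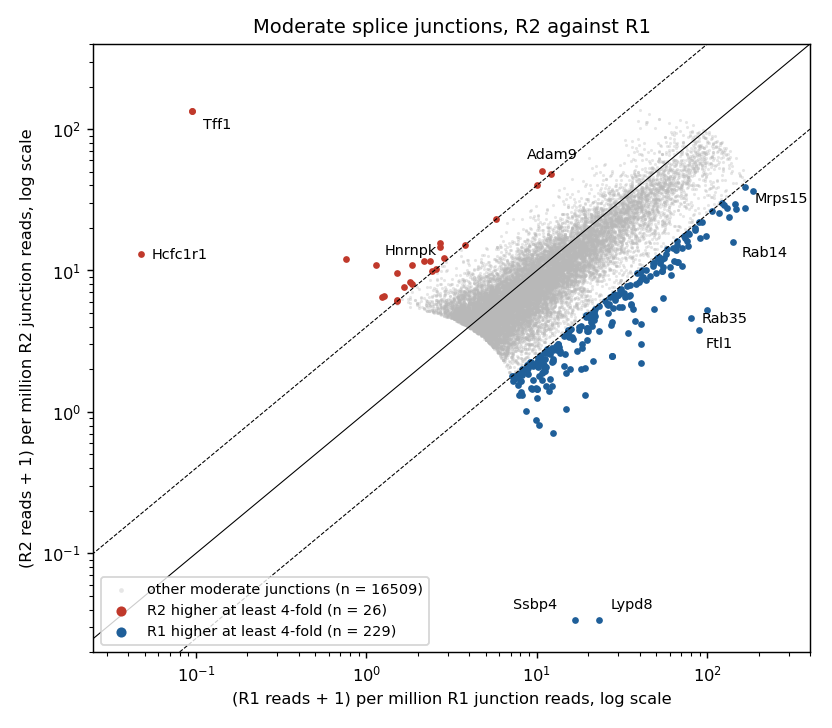
R2 against R1 for the 16764 moderate junctions, as (reads + 1) scaled to 1000000 junction reads on log axes, with the 26 members higher in R2 in red, the 229 members higher in R1 in blue and the others in grey. The solid line marks equal values and the dashed lines a 4-fold difference; the Lypd8 and Ssbp4 junctions lie at the foot of the plot with 0 reads in R2 and the Hcfc1r1 junction at its left with 0 reads in R1.

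At the limit itself, the members just inside were a Vamp2 junction with 284 reads in R2 and 813 in R1, an Acsl5 junction with 302 and 53, and a Txndc17 junction with 66 and 191. Just outside were an Arpc5l junction with 386 reads in R2 and 1104 in R1, an untied junction of chromosome 4 with 107 and 307, and a Pcyt2 junction with 150 and 429.

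Genes were tied to the mm9 junctions through GENCODE M21 introns of the same lengths and spacing, with no coordinates converted. Of the 255 members, 215 lay in such a chain of at least 2 matching introns and belonged to 204 genes. A further 13 had the length of 1 annotated intron in the right gene order, 7 shared a splice site with a tied junction, 2 lay inside a tied gene and 18 had no gene. In the name of each junction stands a flag A, which has no definition in the sources used here. It was 0 in 30 members (11.8%) and in 2.80% of the other moderate junctions.

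Of the members, 3 had reads in one field and 0 in the other. With at least 200 reads in all, such a junction always passes the limit. By the rule, then, none of the 16509 other moderate junctions could have one. The same rule bounded the lowest values of the others, 53 reads in R2 and 31 in R1. The Lypd8 junction chr11:58193212-58195786 (mm9), the second of 6 introns and in the 5′ UTR, had 0 reads in R2 and 492 in R1. Lypd8 encodes a secreted Ly6 family protein that binds flagellated bacteria in the mouse colon. Against a floor of 3 reads this was at least 230-fold lower in R2. The junction with the same acceptor and a donor 611 bases away had 28262 reads in R2 and 12968 in R1, so the member made up 0% of this pair in R2 (95% interval 0 to 0.0131%) and 3.66% in R1 (3.34 to 3.99%). The 6 other junctions of the gene had 88164 reads in R2 and 54149 in R1. In the transcript tables, the 1 Lypd8 transcript with this intron held 0.0711% of the gene's TPM in replicate 2 and 38.8% in replicate 1, while the gene itself differed by a log2 ratio of 0.15.

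The Ssbp4 junction chr8:73123657-73124294 (mm9) had 0 reads in R2 and 351 in R1, at least 164-fold lower in R2. Ssbp4 encodes a single-stranded DNA binding protein. Its donor was also joined to an acceptor 142 bases away with 617 reads in R2 and 575 in R1, and its acceptor to a donor 556 bases away with 933 and 956. Both alternatives were read in R2 as well as in R1. None of the M4 transcripts of Ssbp4 that the authors quantified holds the intron, so the tables give no level for this form.

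The Hcfc1r1 junction chr17:23811036-23811513 (mm9) was the reverse case, with 389 reads in R2 and 0 in R1, at least 92.6-fold higher in R2. Hcfc1r1 encodes a regulator of the transcriptional cofactor HCF-1. A junction with the same donor and an acceptor 12 bases away had 664 reads in R2 and 863 in R1. The member made up 36.9% of that pair in R2 (34.0 to 39.9%) and 0% in R1 (0 to 0.427%). The transcript with the member intron held 67.2% of the gene's TPM in replicate 2 and 5.82% in replicate 1, and the gene as a whole differed by a log2 ratio of -0.04.

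A pair of members with 1 read in R1 matched no annotated intron. The first lay inside the span of Tff1, the trefoil peptide of the gastric pit cells, at chr17:31299755-31301867 (mm9), with 3968 reads in R2 and 1 in R1. The other, at chr5:143286991-143289103 with no gene tied, had 3971 reads in R2 and 1 in R1 and the same length of 2113 bases. Whether these rows share reads was not tested. Both flags in their names, A and C, were 0.

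Some other members parted from a neighbour that used one of the same splice sites. In all, 86 members (33.7%) shared a site with a junction of at least 20 reads, against 15.6% of the other moderate junctions. With at least 200 reads in the partner, 37 members (14.5%) had one, against 5.12%. Of these 37, 16 differed from their most read partner by a log2 ratio of at least 1 and 21 by less.

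Adam9, a membrane metalloprotease, held members in both directions, as 1 of the 13 genes with at least 2 members. The junction of 6860 bases, whose exon ends are printed above, had 1493 reads in R2 and 225 in R1. A junction of 6887 bases with the same acceptor and a donor 27 bases away had 40 reads in R2 and 170 in R1. The shorter intron was 97.4% of the pair in R2 (96.5 to 98.1%) and 57% in R1 (51.9 to 61.9%). The 21 other junctions of the gene had 928 reads in R2 and 873 in R1. The shares in the transcript tables had the opposite order, in that the transcript with the 6860-base intron held 11.3% of Adam9 in replicate 2 and 44.1% in replicate 1.

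Syt8, a synaptotagmin, had a first junction with 463 reads in R2 and 56 in R1. A first junction from the same donor to an acceptor 93 bases away had 470 and 228. The member share of the pair was 49.6% in R2 (46.4 to 52.9%) and 19.7% in R1 (15.3 to 24.8%). In Lgals3, which encodes the lectin galectin-3, first introns that differed by 27 bases at the donor had 70 reads in R2 and 213 in R1 for the member and 250 and 268 for its partner. The Lgals3 member share of the pair was 21.9% in R2 and 44.3% in R1. The share of the gene's TPM in transcripts with the member intron was 12.6% in replicate 2 and 12.4% in replicate 1 for Syt8, and 1.78% in replicate 2 and 3.01% in replicate 1 for Lgals3.

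In Chchd7 both alternatives were higher in R1. Chchd7 encodes a small protein with the cysteine motif typical of mitochondrial intermembrane proteins. Its first introns share a donor and end 45 bases apart, with 88 reads in R2 and 862 in R1 for the shorter and 67 and 449 for the longer. The shorter made up 56.8% of the pair in R2 and 65.8% in R1. Chchd7 had 2660 expected read pairs in replicate 2 and 5058 in replicate 1.

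**Figure D2:**
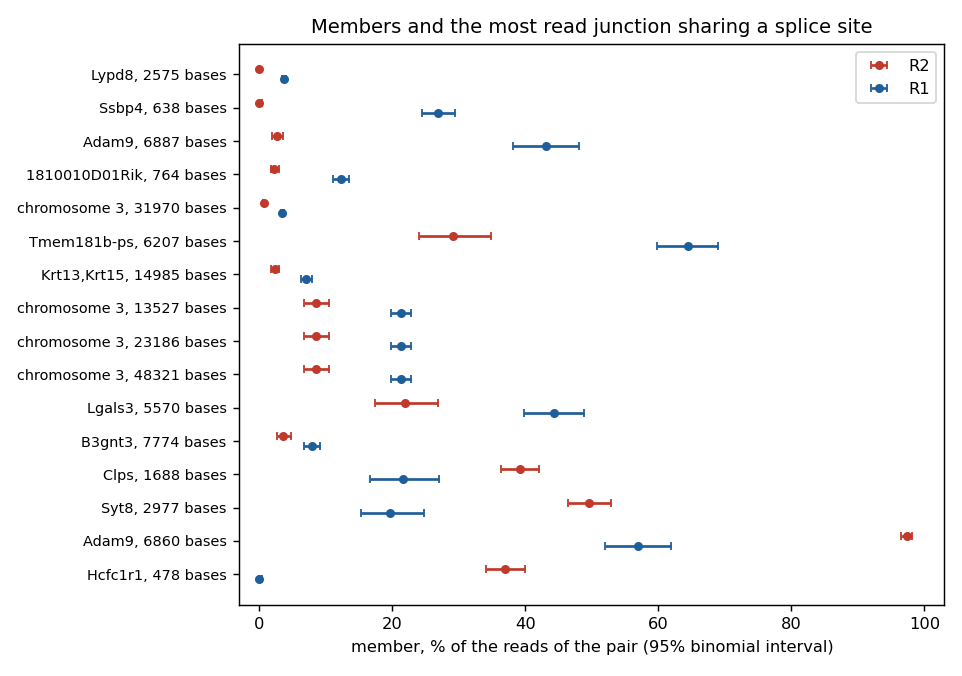
Share of each member in the reads of the pair it forms with the most read junction that shares a splice site, for the 16 members that differed from that partner by a log2 ratio of at least 1. Points are the shares in R2 (red) and R1 (blue), bars are exact 95% binomial intervals, and the chromosome 3 rows of 13527, 23186 and 48321 bases carry the same counts.

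The members higher in R1 lay at the start of their transcripts. Of the 228 members that could be placed in an M21 transcript, 140 (61.4%, 95% interval 54.8 to 67.8%) were the first of several introns, against 15.8% of the 16128 other moderate junctions that could be placed. Among members higher in R2 it was 7 of 22, and among members higher in R1 133 of 206 (64.6%). A further 17 members higher in R1 spanned the single intron of their transcript. Restricted to transcripts with at least 4 introns, the first intron made up 65.5% of the members and 13.3% of the others. The last of several introns made up 7.89% of the members and 13.8% of the others.

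Counted the other way, 4.96% of the 2681 moderate first introns were higher in R1 by the limit, against 0.35% of the 11157 inner introns and 0.76% of the 2240 last introns. First introns as a class had a median log2 ratio of -0.58, inner introns one of -0.22 and last introns one of -0.34. The lower median of first introns was thus seen beyond the members as well.

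By distance along the mRNA, the members higher in R1 were most frequent in a narrow band. Members higher in R1 lay a median of 271.5 exonic bases from the transcript start, with quartiles of 215 and 415 bases, while members higher in R2 lay at a median of 448.5 and other moderate junctions at 827 bases. Between 201 and 300 bases, 85 of 1522 moderate junctions (5.58%) were members higher in R1. The share was 1.56% at 101 to 200 bases, 2.27% at 301 to 400 bases, 0.266% at 1001 to 2000 bases and 0% of 655 junctions beyond 4000 bases. Within the first 100 bases it was 4.31%, or 19 of 441. The band was also present among introns after the first, where 2.43% of 740 junctions at 201 to 300 bases were members higher in R1, against 0.608% at 101 to 200 bases and 0.127% at 301 to 400 bases. Within the first 100 bases there were 2 of 11 such junctions (18.2%), too few to rank. The distance to the 3′ end differed little, with a median of 1425 bases in members higher in R1 and 1497 in the others.

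**Figure D3:**
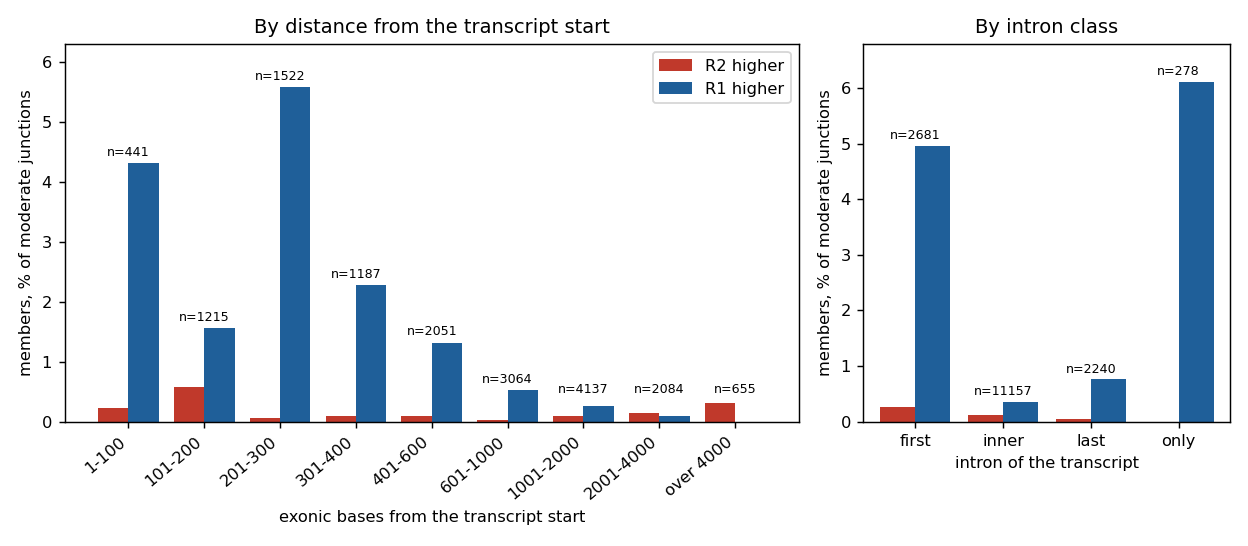
Members as a percentage of the moderate junctions, higher in R2 (red) or in R1 (blue), by exonic distance from the transcript start (left) and by intron class (right); n is the number of moderate junctions in each bin. The share higher in R1 is 5.58% at 201 to 300 bases and 0% beyond 4000 bases, and it is 4.96% for first introns and 0.35% for inner ones.

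The exon ends beside the members were also richer in G and C. Over 50 bases on each side, members higher in R1 had a median GC content of 61% and the other moderate junctions 57%. The share of members higher in R1 was 0.751% where the flanks had at most 50% GC, 1.92% above 60 to 65% and 4.92% above 70%. First introns held the larger share at each level: with at most 50% GC, 3.94% of first and 0.383% of inner introns were members higher in R1, and above 65% it was 5.03% and 1.05%. The part of GC content in the difference was not tested. The introns were long as well, with a median of 1878 bases in members higher in R1 and 810 bases in the others. In 25.2% of the placed members higher in R1 the junction lay in the 5′ UTR, against 5.52% of the others.

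In genes whose first intron was a member, the difference was smaller from the next intron on. In the 129 such genes with a chain of matched introns and R1 higher, the median log2 ratio was -2.21 at the first intron, where the rule fixed it. It was -0.72 at intron 2, -0.49 at intron 3, -0.20 at intron 4 and -0.26 at intron 5. In 2366 other genes with a moderate first intron the values were -0.53, -0.35, -0.23, -0.18 and -0.16. The read numbers were also lower beyond the first intron. The median first junction of the 129 genes had 4.38 reads per 1000000 junction reads in R2 and 21.6 in R1, and the median second junction 1.33 in R2 and 1.65 in R1. In the 2366 other genes it was 8.06 in R2 and 11.6 in R1 at the first junction and 3.30 and 4.06 at the second.

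**Figure D4:**
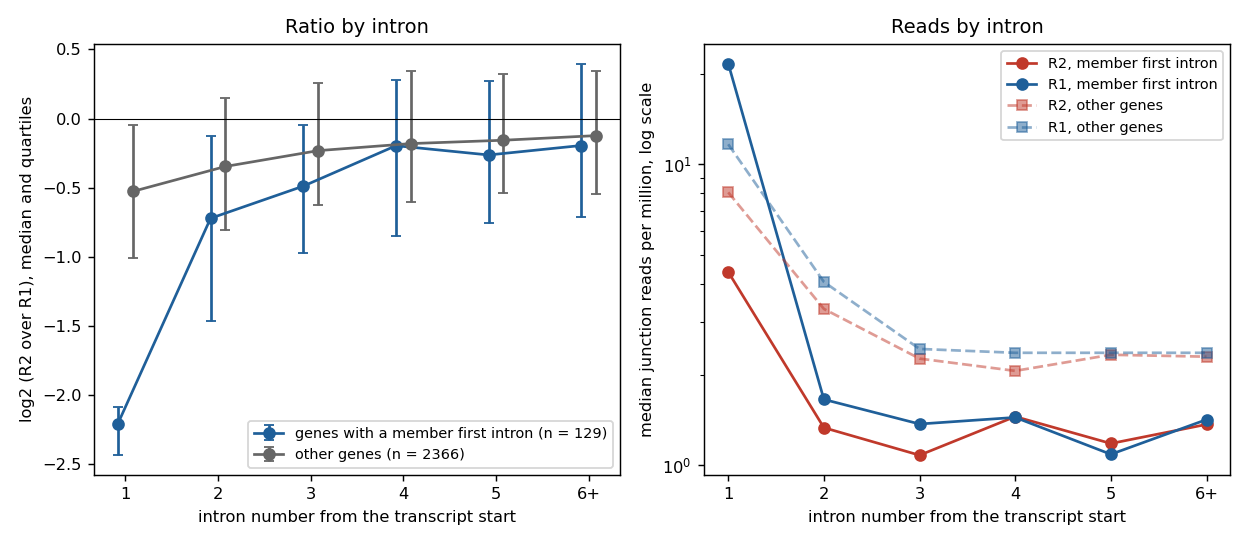
Left: median log2 ratio (R2 over R1) with quartiles by intron number, for 129 genes whose first intron is a member higher in R1 (blue) and 2366 genes with a moderate first intron and no member (grey), over junctions with at least 20 reads. Right: median junction reads, scaled to a depth of 1000000, at all matched introns of these genes in R2 (red) and R1 (blue) on a log axis, in which the first junction of the 129 genes stands at 4.38 in R2 and 21.6 in R1.

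Many members carried most of the junction reads of their gene. Members higher in R1 held a median of 39.3% of the reads of all matched junctions of the gene, against 13.5% for the other moderate junctions. Among first introns alone the medians were 45.0 and 29.2%. In 75 of 193 (38.9%) the member outnumbered all other junctions of its gene together, against 9.11% of the other moderate junctions. Among first introns alone it was 45.8%, against 30.9%. Rab14, a GTPase of endosome traffic, had 470 reads in R2 and 2990 in R1 at its first junction, and its 7 other junctions together had 59 and 77. The first junction of Ppp3r1, the regulatory subunit of calcineurin, had 332 reads in R2 and 1015 in R1, while its 4 others summed to 12 and 13. Med30, a subunit of the Mediator complex, had 204 reads in R2 and 681 in R1 at its first junction and 5 and 8 at its others. Rala, another small GTPase, had 384 and 1214 at its first junction and 11 and 27 at its others.

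Among the deepest members, a junction of chromosome 17 with no gene tied, chr17:24301850-24306150 (mm9), had 1089 reads in R2 and 3909 in R1. The first junction of Mrps15, a protein of the mitochondrial ribosome, had 1160 reads in R2 and 3534 in R1, and its 4 other junctions 330 and 867. The first junction of Ndfip1, an adaptor of Nedd4 family ubiquitin ligases, had 826 reads in R2 and 3529 in R1, and its 6 others 289 and 362. In Mrps15 the other junctions followed with a log2 ratio of -1.88, in Ndfip1 they had one of -0.81.

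Rab35, a GTPase of endosome recycling, had the ratio farthest from 0 among the 140 first introns, with 136 reads in R2 and 1691 in R1, 17.3-fold lower in R2 (log2 ratio -4.11, 95% interval -4.39 to -3.87). Its 5 other junctions had 372 and 620 reads. The first junction of the mitochondrial carrier Slc25a16 had 337 reads in R2 and 1430 in R1, and its 7 others had 160 and 98, so the rest of the gene was on the other side of 0. The same was true of the oxidoreductase Cyb5r4, with 158 and 464 at the first and 73 and 20 at 9 others. In a long gene, the first of 51 introns of the basement membrane collagen Col4a1 had 112 reads in R2 and 371 in R1, and its 50 other junctions 9422 and 7449.

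A further set of members was lower in R2 in genes whose other junctions were nearly even or higher in R2. Polr2m, a protein associated with RNA polymerase II, had at its first junction 130 reads in R2 and 800 in R1, beside 525 and 405 at 2 others. Tbc1d22b, a protein with a Rab GTPase activating domain, had at its first junction 36 reads in R2 and 211 in R1, beside 429 and 302 at 11 others. In both genes the log2 ratio of the other junctions lay between -0.11 and 0.02, both ends included. Chmp4b, a subunit of the ESCRT-III membrane-cutting complex, differed at its last junction instead, with 64 reads in R2 and 217 in R1, beside 288 and 115 at 3 others, which had a log2 ratio of 0.83. Tmem181b-ps, a pseudogene, had 84 reads in R2 and 285 in R1 at its first junction and 1380 and 574 at 13 others, with a log2 ratio of 0.78, and whether reads of its parent gene are counted there was not tested.

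The muscle tropomyosin gene Tpm2 gave the 1 member among 123 moderate junctions of smooth muscle genes. Its first junction had 440 reads in R2 and 1618 in R1, beside 988 and 810 at 9 others, and the gene stood at 120.8 TPM in replicate 2 and 129.6 TPM in replicate 1. Xbp1, a transcription factor of the secretory stress response, had 63 reads in R2 and 196 in R1 at its first junction and 1410 and 1401 at 3 others. For both genes the library values were close while the first junction was not.

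The members higher in R2 were mostly inner introns, and their share showed no steady change with distance from the transcript start. First introns made up 7 of the 22 placed ones (31.8%). Among moderate first introns 0.261% were members higher in R2, against 0.125% of inner introns. At 101 to 200 bases from the transcript start it was 0.576%, against 0.155% of all moderate junctions. These shares rest on few members. Of the 22 that could be placed, 14 were inner introns (63.6%), against 68.8% of the others, and their median transcript had 13 introns, against 11. Hmcn2, a giant extracellular matrix protein, had 238 reads in R2 and 38 in R1 at intron 66 of 97, beside 9956 and 4309 at 92 other junctions. Pkd1, which encodes polycystin 1, had 181 and 31 reads at intron 24 of 45, beside 3542 and 2757 at 46 others. Nomo1, a membrane protein of the endoplasmic reticulum, had 224 and 34 reads at intron 11, beside 1596 and 993 at 29 others. Ppil2, a cyclophilin, had 244 and 37 reads at intron 2, beside 2600 and 2118 at 19 others. In each of these 4 genes the other junctions differed by a log2 ratio under 1 in size, while the member itself differed at least 4-fold. A junction in the 3′ UTR of an annotation shared by Gm49320 and Tgfbr3l had 356 reads in R2 and 15 in R1, beside 1104 and 491 at 14 others, and its gene is uncertain.

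Across the members, the rest of the gene often lay on the same side of 0 but closer to it. Summed over the other junctions of its gene, 65 of 193 members higher in R1 (33.7%) had a log2 ratio of -1 or lower, against 6.22% of all moderate junctions with a value, and 4 of 22 members higher in R2 (18.2%) had one of 1 or more, against 0.95%. The median over the other junctions was -0.63 for members higher in R1, 0.46 for members higher in R2 and -0.26 for the other moderate junctions. For 126 of the 193 and 17 of the 22, the other junctions stayed within a log2 ratio of 1 of 0. In 33 and 6 they lay on the other side of 0. These other junctions come from the same libraries as the members, so they are no independent sample.

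Gene counts came from the libraries themselves and from another build. R2 is set beside replicate 2 here by its digit alone. Of 196 genes with a member higher in R1, 60 (30.6%) had a log2 ratio (replicate 2 over replicate 1) of -1 or lower, against 4.73% of 5265 genes with a moderate junction. Of 22 genes with a member higher in R2, 6 (27.3%) had one of 1 or more, against 0.855%. The median gene ratio was -0.77 for the 196 and 0.51 for the 22, beside -0.09 in genes with moderate junctions and no member.

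**Figure D5:**
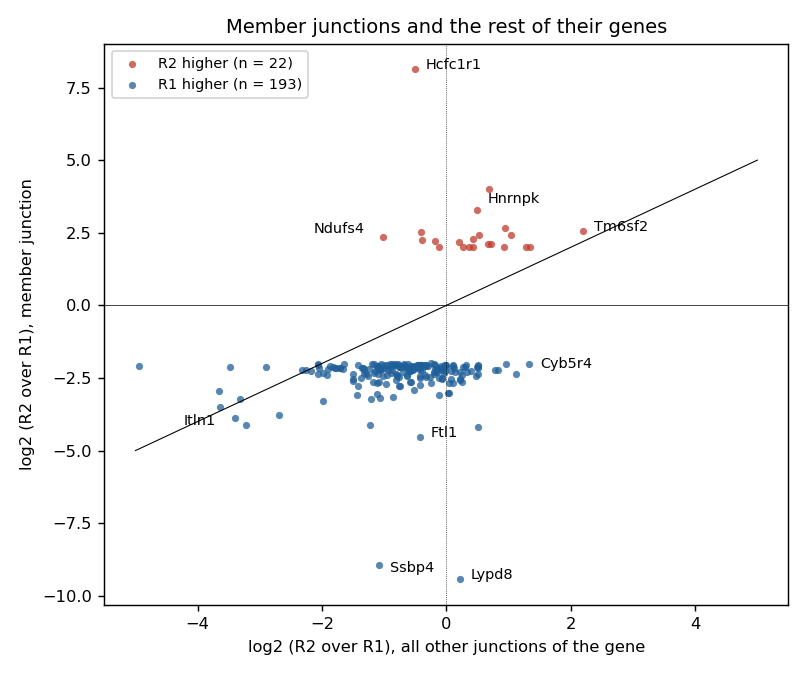
Log2 ratio (R2 over R1) of each member against that of all other junctions of its gene together, for the 22 members higher in R2 (red) and the 193 higher in R1 (blue) with such a value; the diagonal marks equal ratios. Most members lie far from the diagonal, with the other junctions between -1 and 1, and Tm6sf2 and Itln1 lie near it.

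Some genes differed as a whole. Itln1 encodes intelectin 1, a lectin that binds microbial sugars and is made by intestinal goblet and Paneth cells. Its first junction had 38 reads in R2 and 404 in R1, its 6 others had 36 and 279, and the gene had 2.30 TPM in replicate 2 and 34.0 TPM in replicate 1. Of the 10 intestinal markers, 9 had a TPM above 0, Sis was at 0 in both libraries, and the list summed to 493 TPM in replicate 2 and 755 TPM in replicate 1. Most of this sum came from Apoa1, with 460 TPM in replicate 2 and 683 TPM in replicate 1, and it includes Itln1. In all, 4 of the 10 were higher in replicate 1, Itln1 among them, while Alpi, Fabp1, Fabp2, Muc2 and Vil1 were higher in replicate 2. The part of intestinal cells in the Itln1 value was not tested. Lyg1, a goose-type lysozyme, had a pair of members with 20 reads in R2 and 261 in R1 at intron 3 and 25 and 207 at intron 2. The gene stood at 1.61 TPM in replicate 2 and 15.1 TPM in replicate 1. Aqp5, a water channel of secretory epithelia, also had a pair, with 110 and 420 reads at its last intron and 146 and 436 at intron 2. The gene had 19.3 TPM in replicate 2 and 78.8 TPM in replicate 1. Scd1, a fatty acid desaturase, had 124 reads in R2 and 866 in R1 at its last intron and 264 and 881 at its first. The gene stood at 9.12 TPM in replicate 2 and 31.2 TPM in replicate 1. Ly6k, a small Ly6 family protein, had 55 reads in R2 and 311 in R1 at its first junction, beside 18 and 170 at 2 others. Cck, the gene of the gut hormone cholecystokinin, had 50 reads in R2 and 155 in R1 at its first junction and 0 and 21 at its other one, with 1.98 TPM in replicate 2 and 7.83 TPM in replicate 1. Each of these 6 genes was lower in R2 at the member, at the other junctions and, in replicate 2, in the gene tables.

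Genes with more than 1 member mostly had neighbouring introns among them. Gsr, which encodes glutathione reductase, had 275 reads in R2 and 1300 in R1 at its first junction and 106 and 721 at the next intron, which all 3 quantified transcripts hold, beside 1166 and 1626 at the 11 junctions other than the first. It stood at 28.5 TPM in replicate 2 and 30.5 TPM in replicate 1. Klk9, a kallikrein protease, had 171 and 542 reads at intron 1 and 145 and 455 at intron 2. Gga2, an adaptor of Golgi vesicles, had 236 and 802 reads and 192 and 693 at introns held by 4 of its 6 quantified transcripts, which made up 31.9% of its TPM in replicate 2 and 64.5% in replicate 1. Lsm2, a core protein of spliceosomal particles, had alternative first junctions with 285 and 850 reads and with 38 and 173.

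The transcript tables had the opposite order in Slc25a3 and the same order in C1qbp. Slc25a3, the mitochondrial phosphate carrier, had 127 reads in R2 and 436 in R1 at its second junction, beside 6671 and 21500 at 6 others. The transcripts with that intron held 64.0% of the gene in replicate 2 and 6.97% in replicate 1. C1qbp, a mitochondrial matrix protein, had 80 reads in R2 and 278 in R1 at its first junction and 181 and 123 at 4 others. The transcript with the member intron held 46.8% in replicate 2 and 99.9% in replicate 1.

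In the other direction, Tm6sf2, which acts in the secretion of lipid-loaded lipoproteins in liver and intestine, had 325 reads in R2 and 38 in R1 at its last intron and 718 and 111 at 8 other junctions. It stood at 17.8 TPM in replicate 2 and 4.41 TPM in replicate 1. Try4, a trypsin of the acinar pancreas, had 1438 reads in R2 and 254 in R1. Of 15 acinar genes all had a TPM above 0, and the sum was 376 TPM in replicate 2 and 234 TPM in replicate 1. Try4 itself held 185 and 57.8 TPM of these sums. Of the 14 kept, 4 were at least 2-fold higher in replicate 2 and none in replicate 1, where 0.855% of genes with a moderate junction were so in replicate 2. The 4 were Try4 and the weakly expressed Cpb1, Pnlip and Prss2, with 0.40, 0.52 and 2.43 TPM in replicate 2. The 0.855% is over genes with a junction of at least 200 reads, so it is no like measure for weakly expressed genes. By any amount, 5 of the 15 were higher in replicate 1. The Try4 donor was also joined to 3 far acceptors, 52394 to 219517 bases away, with log2 ratios from 1.38 to 1.68, and since trypsin genes form a family of near-copies, these counts are uncertain. The first junction of the carboxylesterase Ces2a had 192 reads in R2 and 25 in R1, that of the serine protease Prss32 had 283 and 31, and that of Cdh5, the cadherin of blood vessel endothelium, had 343 and 45. The mucin Muc5ac, made by pit cells of the gastric surface, had an inner junction with 1196 reads in R2 and 211 in R1, beside 294981 and 157008 at 46 others, and another inner junction with 343 and 49.

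Skeletal muscle genes supplied 3 members of 51 moderate junctions (5.88%), all higher in R2, against 0.155% of all moderate junctions. A Myh1 intron of 115 bases had 449 reads in R2 and 79 in R1, and a Myh8 intron had 179 and 31. Both genes encode fast myosin heavy chains, and their other junctions had 872 reads in R2 and 327 in R1 for Myh1 and 1014 and 297 for Myh8. The other member joined Myh2 to Myh1 over 28864 bases with 293 and 50 reads. These genes are near-copies of each other, so the assignment of reads between them is uncertain. Of 35 skeletal muscle markers, 33 had a TPM above 0 and Myl2 and Tnnc1 were at 0. Of the 31 kept, 10 were at least 2-fold higher in replicate 2 and 2 in replicate 1. Over genes with a moderate junction, which not all of these markers have, the shares were 0.855% and 4.73% in the same order. The sum was 1518 TPM in replicate 2 and 1913 TPM in replicate 1. Des, which is also in the smooth muscle list, was among the 2 higher in replicate 1. It stood at 340 TPM in replicate 2 and 806 TPM in replicate 1, a larger gap than that of the sum. Des was named after its value was seen. The part of skeletal muscle in the tissue was not tested, and fewer cells of a type cannot be told apart from less RNA per cell in bulk tissue.

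The squamous epithelium supplied 8 members of 108 moderate junctions (7.41%), all higher in R1. Over all moderate junctions, 1.37% were members higher in R1. Many of these members lay in 1 stretch of chromosome 3, from 91884555 to 92822942 on mm9, which holds genes of the cornified envelope, the protein shell of keratinised cells. The ends given are those of the outermost members, and moderate junctions were counted in a fixed window that reaches slightly past them. A window placed around members raises the share of members in it. Of the 68 moderate junctions in the window 19 (27.9%) were members, all higher in R1, and the other 49 had a median log2 ratio of -1.20. Lce1m, a late cornified envelope gene, had an annotated junction of 377 bases with 65 reads in R2 and 866 in R1 and an unannotated one with a donor 4 bases away with 156 and 2110. The annotated one made up 29.4% of the pair in R2 and 29.1% in R1. The gene had 15.7 TPM in replicate 2 and 150 TPM in replicate 1.

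The only intron of Lor, which encodes loricrin, had 317 reads in R2 and 1509 in R1. Close by on the same strand lay 4 members under 200 bases with no annotated intron, with 30 and 311, 60 and 402, 59 and 332, and 161 and 594 reads in R2 and R1. All 4 lengths were multiples of 3. Lor stood at 281 TPM in replicate 2 and 1056 TPM in replicate 1. The intron of Sprr2b had 128 reads in R2 and 582 in R1, that of Crct1 had 139 and 409, that of Lce3a had 320 and 1016 and that of Lce1a2 had 888 and 2570. Beyond chromosome 3, a first intron of the cross-linking enzyme Tgm1 had 54 and 186 reads, and a junction that joined the neighbouring keratin genes Krt13 and Krt15 had 69 and 234.

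Of 62 squamous markers, 58 were above 0 and Flg, Stfa1, Stfa2 and Stfa3 were at 0. Of the 56 kept, 2 were at least 2-fold higher in replicate 2 and 10 in replicate 1. Over genes with a moderate junction the shares were 0.855% and 4.73% in the same order, so both counts lay above them. Not all of these markers have a moderate junction, so the sets are not alike in depth. The list summed to 41163 TPM in replicate 2 and 83116 TPM in replicate 1, most of it from Sprr2a2 with 29922 and 65818 TPM. Its median log2 ratio was -0.23. By any amount, 36 of the 62 were higher in replicate 1. Some genes of the basal layer were higher in replicate 2, with log2 ratios of 0.42 for Krt5, 0.88 for Trp63, 1.09 for Dsg3 and 1.17 for Krt15. Genes of later layers lay in both directions, with 0.51 for Ivl and 0.37 for Krtdap beside -1.92 for Lor. The basal keratin Krt14 was nearly even, at 0.09. These genes and Sprr2a2 were named after their values were seen. The part of squamous lining in the members was not tested. Several of these rows are not independent. A set of 3 junctions that start at 92748458 had the same 73 reads in R2 and 583 in R1 each, and a pair that starts at 92771030 had the same 291 and 1149. Over all members, 5 shared both counts with another member of their chromosome.

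Some members belong to genes with many processed copies in the genome, and their counts are uncertain for that reason. The last junction of Ftl1, the ferritin light chain, had 112 reads in R2 and 1877 in R1, while its 4 other junctions had 190 and 182. The gene itself held 199669 expected read pairs in replicate 2 and 202155 in replicate 1. Of the 74 moderate junctions of ribosomal protein genes 2 were members in opposite directions, the first junction of Rpl3 with 689 reads in R2 and 121 in R1 and that of Rpl13a with 194 and 735. Hnrnpk, an RNA-binding protein of the splicing factor list, had 326 reads in R2 and 23 in R1 at a junction held by 6 of its 21 quantified transcripts, and its 13 other junctions had 135 and 68. The transcripts with that intron held 25.3% of its TPM in replicate 2 and 9.29% in replicate 1. The ribonuclease gene Rnaset2b had members at introns 1 and 2 with 190 reads in R2 and 1157 in R1 and with 359 and 1139. Its near-copy Rnaset2a, tied together with Gm49673, had 361 and 1078 and 364 and 1172 at the same introns.

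Other named lists gave 3 members or fewer. The pit cell list gave 3 of 59 (5.08%), in Muc5ac and Tff1, all higher in R2, against 0.155% of all moderate junctions. The neck and gland mucous cell list gave 2 of 26 (7.69%), the pair in Aqp5 higher in R1, against 1.37%. With 1.52% of all moderate junctions being members, fewer than 1 member would fall in a list of 50 at that share, so a count of 0 in the short lists is no result about them. None of the 50 moderate junctions of parietal cell genes, of the 12 of endocrine genes or of the 35 of macrophage and MHC class II genes was a member, and of the 267 of collagen and matrix genes 1 was. The chief cell list gave 1 of 45, an unannotated junction inside Clps with 436 reads in R2 and 56 in R1 whose neighbour 2 bases away had 677 and 204. The respiratory chain gave 1 of 161, the first junction of Ndufs4, a subunit of complex I, with 194 and 26 reads while its 4 other junctions had 151 and 220.

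The contig table, which lists stretches of continuous coverage, overlapped both exon flanks, of 50 bases each, of 97.6% of the members and of 99.5% of the other moderate junctions. With all 50 bases of both flanks required, it was 90.2 and 97.7%. The significance field of the junction table was at most 0.025 for every member and every other moderate junction, so it did not separate them.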

How the data were processed

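The junction table the authors deposited (mm9) gives read counts, with R2 and R1 in each name, and a significance score that the sources used here do not define. The contig table, also deposited on mm9, holds a coverage signal. Expected counts, TPM and a posterior SD of the count (a signal in read pairs) per gene or transcript were deposited on mm10 with GENCODE M4, per the README beside them. The aligner is not given in the sources used here.

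Ratios were log2 of (R2 + 1) over its sum against (R1 + 1) over its sum. Clopper-Pearson intervals (95%, no read added) cover counting error only, since reads are not independent molecules. Genes came from M21 introns that matched in length and spacing within 10 Mb. The rules for length and gene order, shared sites and spans were added after seeing the data. Intron class and distance follow the transcript of highest mean TPM that holds the intron. Gene ratios used rounded expected counts, a prior count of 2 and TMM in edgeR 4.0.16, with DESeq2 1.42.0 size factors as an alternative. A marker was kept where filterByExpr kept it. With 1 group of 2 libraries no test was run. The procedures were tested on simulated data. The members, gene lists and bins were chosen with earlier results of these data known.

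Named genes are those with most members, the 12 highest and 12 lowest ratios, the 8 deepest members, the 12 that differ most from their gene, members of the gene lists, and the junctions at the limit. Other genes were named after their values were seen, for their share of the reads of the gene.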

Additional observations from a re-analysis of the deposited data

How the results depend on the processing

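Leaving out a library leaves no ratio, and 2 libraries of 1 group allow no such repeat. No paired analysis was possible because the design has 1 group. The number of members was 791 with a log2 limit of 1.5, 33 with a limit of 3, 131 with at least 500 reads and 154 after centring on the median, against 255. The share higher in R2 was 32.5% after centring, 15.2% with the limit of 3 and 6.11% with at least 500 reads, against 10.2%. The majority was higher in R1 in each of these. A pseudocount of 5 reads gave 235 members. First introns made up 52.8% of the placed members with the limit of 1.5, 52.2% with 3 and 50.4% after centring, against 61.4%. The repeats on first introns and the added tie rule were chosen after seeing the data; taking the transcript with most introns gave 57.9%. Members whose gene moved with them numbered 17 with a limit of 2, against 69. Members sharing a splice site numbered 37 with a partner of at least 200 reads, against 86. Both flanks lay wholly in contigs for 90.2%, against 97.6%. The number of tied genes (193 with 3 matching junctions, 217 with the added tie rule, 204 as reported) and of member genes that moved between libraries (64 to 67) changed little.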
